A study of Arabidopsis thaliana with 28 samples.

Results

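The 9 alpha expansins EXPA1, EXPA3, EXPA4, EXPA5, EXPA6, EXPA8, EXPA10, EXPA11 and EXPA15 of Arabidopsis thaliana were followed by messenger RNA level through the day in whole seedlings. They were chosen by gene ID, as 9 of the 26 alpha expansin genes of the genome and of 33602 genes listed. All 9 passed the filter on low values in these libraries. The 4 conditions were set against each other in seedlings aged 7 d and grown on plates in long days of 16 h light and 8 h dark: pif7 under oscillating temperature, pif7 under constant temperature, Col-0 under oscillating temperature and Col-0 under constant temperature. Col-0 is the wild type, and pif7 is a mutant of PIF7, a PIF-type transcription factor through which seedlings respond to shade and warmth, whose allele the labels do not name. ZT counts hours after lights on. The constant regime stayed at 17 °C, and the oscillating regime warmed each day to 27 °C between ZT4 and ZT12. Seedlings were harvested at 7 times: ZT0, the warming at ZT4, then ZT5, ZT8, the cooling at ZT12, ZT16 and finally ZT20. Every combination of these has a single library (28 in all), so there are no replicates.

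Expansins are secreted proteins of the cell wall that loosen the contacts between cellulose microfibrils and the hemicelluloses around them, without cutting either polymer. They act best at acid pH, and in acid growth the wall is acidified by plasma membrane proton pumps. Alpha expansins are the largest branch of the family and are known from elongating hypocotyls, petioles, leaves and roots. In warm or shaded seedlings, PIF factors raise auxin synthesis, and auxin leads to acidification of the wall and to growth.

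PIF7 itself checked the genotype labels. It was at 1.91 to 13.1 TPM in the 14 pif7 libraries, against 8.42 to 38.6 TPM in the 14 Col-0 libraries, and was lower in pif7 in 14 of 14 pairs (log2 difference -1.54 ± 0.10 SE, adjusted p = 1.693e-07), so that its transcript was reduced and not absent. TPM is the deposited abundance, scaled for gene length and library. Differences between conditions are given as log2 of TPM rescaled between libraries plus 1, so they understate the change of low genes, and pairs are counted on that scale. An adjusted p under 0.05 over the 21031 genes tested counted as a pass. With 1 library per condition, p reflects how steady a difference was across times and genotypes; it says nothing of variation among seedling pools.

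The promoters of EXPA1, EXPA10, EXPA11 and EXPA8 are shown because the first 3 hold a PIF-binding E-box (CACATG) in the 250 bases before the RefSeq gene start, and because EXPA8, which does not, varied most between libraries. Sequences are 5′ to 3′ on the strand of the gene, from RefSeq TAIR10.1, and capitals mark the E-box on either strand.
EXPA1, chr1:26141476-26141725, plus strand: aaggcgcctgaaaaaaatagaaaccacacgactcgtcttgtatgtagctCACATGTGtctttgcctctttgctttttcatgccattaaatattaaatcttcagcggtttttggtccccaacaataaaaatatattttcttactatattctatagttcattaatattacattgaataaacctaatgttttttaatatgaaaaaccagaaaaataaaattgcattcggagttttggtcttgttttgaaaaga
EXPA10, chr1:9259182-9259431, plus strand: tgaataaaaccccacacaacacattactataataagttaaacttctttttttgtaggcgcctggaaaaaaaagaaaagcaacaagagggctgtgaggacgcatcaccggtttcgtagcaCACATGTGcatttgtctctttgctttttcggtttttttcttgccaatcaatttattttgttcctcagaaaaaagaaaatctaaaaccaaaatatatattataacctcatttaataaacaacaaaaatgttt
EXPA11, chr1:6999840-7000089, minus strand: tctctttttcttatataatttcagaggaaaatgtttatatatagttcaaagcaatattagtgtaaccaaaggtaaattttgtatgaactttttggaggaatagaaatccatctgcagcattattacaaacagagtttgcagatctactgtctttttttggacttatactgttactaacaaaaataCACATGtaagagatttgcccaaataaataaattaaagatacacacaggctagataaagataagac
EXPA8, chr2:16950706-16950955, minus strand: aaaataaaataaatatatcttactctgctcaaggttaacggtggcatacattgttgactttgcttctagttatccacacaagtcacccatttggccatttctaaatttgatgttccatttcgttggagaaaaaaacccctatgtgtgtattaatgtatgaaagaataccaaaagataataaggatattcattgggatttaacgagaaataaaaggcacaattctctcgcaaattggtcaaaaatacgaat
In EXPA1 and EXPA10 the E-box is the palindrome CACATGTG, which was noticed after the sequences were printed and stands in 103 of 27443 promoters (0.375%). The 2 promoters also share a run of 14 bases (ctctttgctttttc) downstream of it, the longest run that any pair of the 9 shares in this window. CACATG stood in 3 of the 9 windows of 250 bases, against 11.1% of all promoters, and in 6 of 9 windows of 1000 bases, against 37.7%. The wider window adds EXPA3, EXPA8 and EXPA15. RefSeq starts each of the 9 genes farther upstream than the deposited files do, by 22 bases for EXPA11, 110 for EXPA1, 148 for EXPA8, 173 for EXPA10 and up to 286 for EXPA3. Counted from the starts in the files, a choice added after the data were seen, CACATG stood in 1 of 9 windows of 250 bases (EXPA11), against 10.4% of 26711 promoters, and in 6 of 9 windows of 1000 bases, against 37.4%. The E-boxes of EXPA1 and EXPA10 printed above then lie outside the 250 bases. The G-box CACGTG, the other core that PIF factors bind, stood in 0 of the 9 at either width from either start, against 6.49% and 14.8% of all promoters from the RefSeq starts. Both strands were searched, CACATGTG counts as a match of CACATG on each strand, and CACGTG and CACATG share no match. These are letters in a window and not measured binding sites.

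The genes lie at separate places, 3 on chromosome 1, 5 on chromosome 2 and 1 on chromosome 3. By the coordinates in the deposited files, which are on TAIR10, EXPA1 (AT1G69530) is at chromosome 1, 26141836 to 26143500, plus strand. EXPA10 (AT1G26770) is at chromosome 1, 9259605 to 9261313, plus strand. EXPA11 (AT1G20190) is at chromosome 1, 6998489 to 6999817, minus strand. EXPA8 (AT2G40610) is at chromosome 2, 16948863 to 16950557, minus strand. EXPA3 (AT2G37640) is at chromosome 2, 15787705 to 15789853, minus strand. EXPA4 (AT2G39700) is at chromosome 2, 16543832 to 16545584, and EXPA6 (AT2G28950) at chromosome 2, 12431341 to 12433595. EXPA15 (AT2G03090) is at chromosome 2, 916854 to 918643, and EXPA5 (AT3G29030) at chromosome 3, 11011308 to 11013358, these 4 on the minus strand. The longest run of identical bases between transcripts of any 2 members was 33, between EXPA10 and EXPA15.

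EXPA1, a gene known from guard cells and from growing shoots, was the most abundant of the 9 in 28 of 28 libraries, at 107 to 473 TPM. It made up 21.4% to 56.9% of the summed TPM of the 9. EXPA6 came second in 21 libraries, at 61.2 to 129 TPM with a median of 96.3. By median TPM the order was EXPA1, EXPA6, EXPA3, EXPA11, EXPA4, EXPA10, EXPA15, EXPA8 and EXPA5. EXPA6 exceeded EXPA3 in 24 of 28 libraries and EXPA3 exceeded EXPA11 in 22. Further down, EXPA4 exceeded EXPA10 in 20 of 28 libraries and EXPA10 exceeded EXPA15 in 23. The remaining neighbours changed places more often, as EXPA11 exceeded EXPA4 in 13 of 28 libraries, EXPA15 exceeded EXPA8 in 12, and EXPA8 exceeded EXPA5 in 17.

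The summed TPM of the 9 was highest at ZT4 in each condition. It ran from 448 to 945 TPM with a median of 561 in pif7 under oscillation, and from 429.6 to 843 with a median of 513 in pif7 at constant temperature. In Col-0 it ran from 588 to 1035 TPM with a median of 706 under oscillation, and from 443 to 826 with a median of 511 at constant temperature. The ranges of all 4 conditions overlapped. The 9 held 76.7% to 93.5% of the summed TPM of all 26 alpha expansins. Of the 27 other alpha, beta and expansin-like genes, 15 passed the filter and 12 did not, 9 of these listed at 0 in every library.

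**Figure D1:**
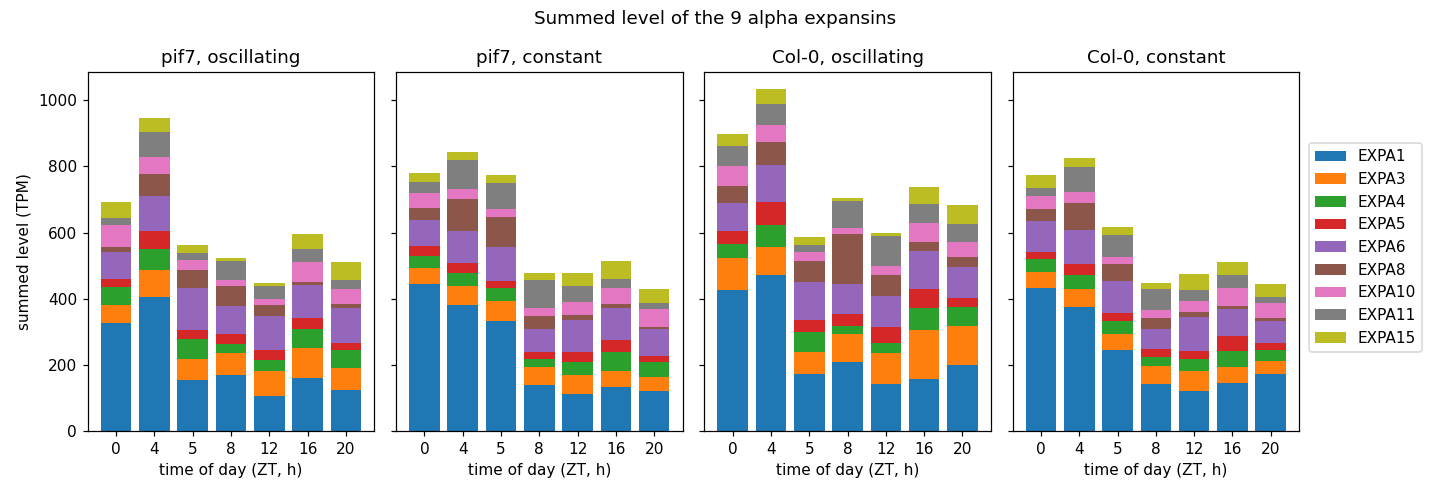
Stacked bars of the TPM of the 9 alpha expansins against time of day (ZT, h) in pif7 oscillating, pif7 constant, Col-0 oscillating and Col-0 constant seedlings, 1 library per bar. EXPA1 is the largest block in every bar, with 21.4% to 56.9% of the sum, and each condition has its tallest bar at ZT4.

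Most members varied through the day. At constant temperature 8 of 9 varied over the 7 times, against 30.6% of all genes, and under oscillation 8 of 9, against 65.7%. Under oscillation the times also differ in temperature, so time of day and warmth cannot be told apart there. EXPA3 did not pass in either regime (adjusted p = 0.0656 at constant temperature and 0.12 under oscillation). At constant temperature EXPA8 had the widest swing among the 9, 3.40 log2 units between a peak at ZT4 and a trough at ZT20, followed by EXPA11 with 2.22 between the same times and EXPA1 with 1.99 between ZT0 and ZT12. EXPA4, EXPA5, EXPA10 and EXPA15 peaked at ZT16, with swings of 1.06, 1.22, 1.24 and 1.12. EXPA6 swung by 0.57. The passes of EXPA4, EXPA5 and EXPA6 at constant temperature, and of EXPA11 under oscillation, each ended when 1 or 2 times were left out singly (EXPA4 without ZT8 or ZT16, EXPA5 without ZT16 or ZT20, EXPA6 without ZT8, EXPA11 without ZT5, adjusted p from 0.0517 to 0.0807).

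**Figure D2:**
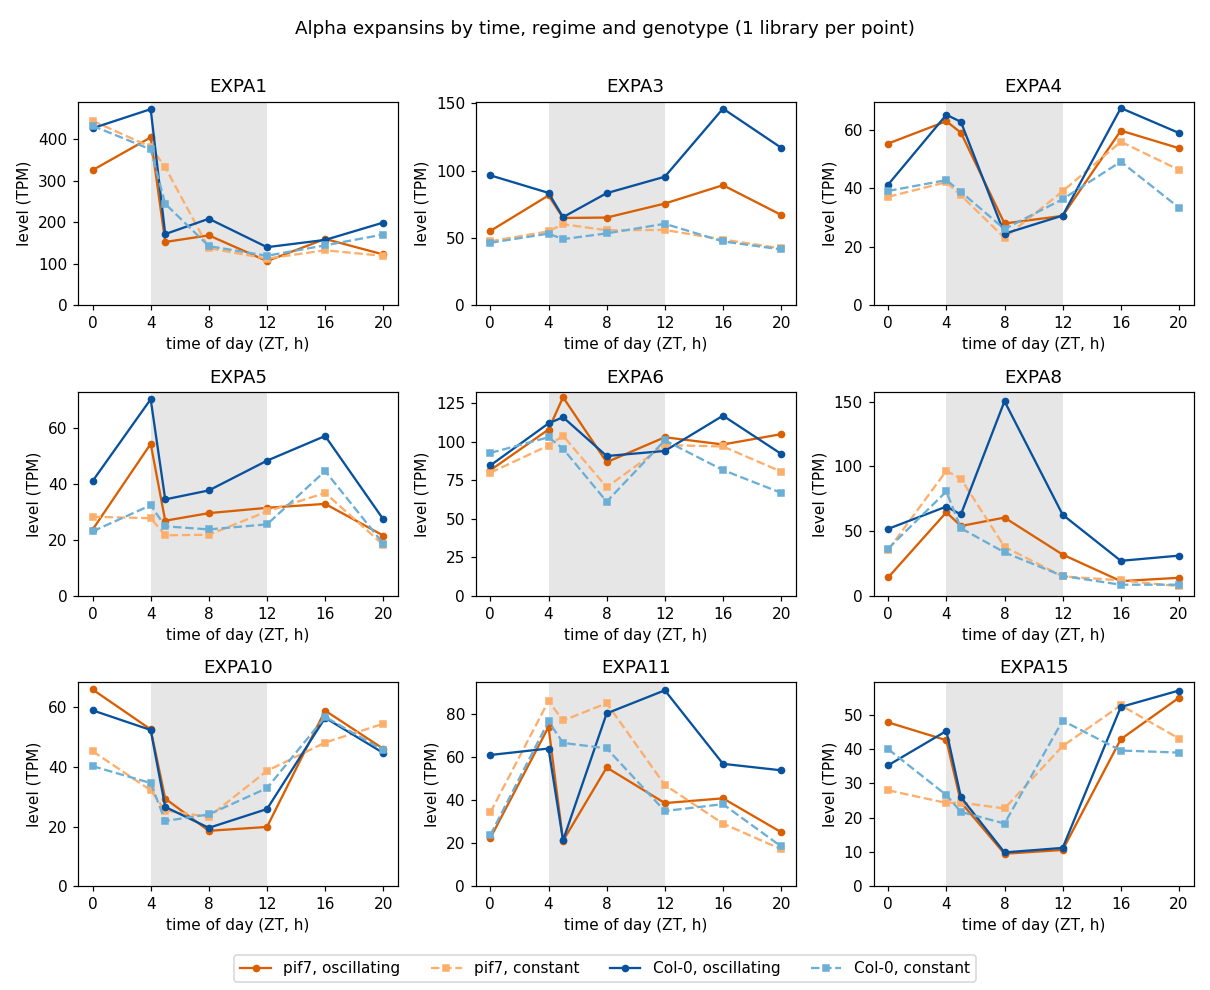
Level (TPM, linear axis from 0) of each alpha expansin against time of day (ZT, h), with pif7 oscillating, pif7 constant, Col-0 oscillating and Col-0 constant as separate lines and 1 library per point. Grey marks ZT4 to ZT12, the hours at 27 °C in the oscillating regime. EXPA8 in Col-0 under oscillation stands at 150.4 TPM at ZT8, EXPA15 under oscillation falls to 9.5 and 9.88 TPM there in pif7 and Col-0, and EXPA3 under oscillation lies above its constant line at each time in both genotypes.

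EXPA3 was the 1 member higher under oscillation in every pair of libraries. Under oscillation its 7 levels from ZT0 to ZT20 were 55.3, 81.6, 64.9, 65.2, 75.6, 89.2 and 67.2 TPM in pif7, against 47.6, 55.0, 60.3, 55.8, 56.0, 48.9 and 42.4 TPM in pif7 at constant temperature. In Col-0 they were 96.5, 83.5, 65.5, 83.3, 95.5, 146 and 117 TPM under oscillation, against 46.5, 53.3, 49.2, 53.5, 60.6, 47.5 and 41.6 TPM at constant temperature. The 2 regimes did not overlap in Col-0 and overlapped in pif7, and Col-0 at ZT16 was the highest library. Over all 7 times, a comparison added after the data were seen, EXPA3 was 1.53-fold higher under oscillation (0.61 ± 0.07 SE on the log2 scale, with adjusted p = 0.000135 and 14 of 14 pairs higher). It held under each alternative fitted. EXPA3 passed over ZT0, ZT4, ZT16 and ZT20, with a log2 difference of 0.76 ± 0.09 (adjusted p = 0.000666, 8 of 8 pairs). It also passed over ZT5, ZT8 and ZT12, with 0.42 ± 0.11 (adjusted p = 0.0182, 6 of 6 pairs). ZT4, where the warm hours begin, was counted as outside them, and ZT12, where they end, as within them. The pass within the warm hours ended without ZT8 (adjusted p = 0.091) and without ZT12 (adjusted p = 0.164).

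Of the 9 members, 2 passed over the warm window of ZT5, ZT8 and ZT12 in both genotypes together, which is 1 higher and 1 lower, against 10.4% of all genes higher and 8.97% lower (19.4% either way). Outside the window 1 of 9 passed, against 5.31% of all genes, and over all times 2 of 9, against 14.4%. The members' median log2 difference was 0.16 in the window, 0.27 outside it and 0.15 over all times, beside medians of -0.00448, 0.00799 and 0.00609 over all genes. Over single times, 5 of the 63 combinations of member and time passed, against between 0.799% (ZT0) and 16.2% (ZT12) of all genes at a time.

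EXPA15 was the 1 member that passed as lower in the warm window. It was at 9.5 and 10.6 TPM in pif7 under oscillation at ZT8 and ZT12, against 22.7 and 40.9 TPM in pif7 at constant temperature. Col-0 had 9.88 and 11.2 TPM under oscillation at these times, against 18.3 and 48.3 TPM at constant temperature. These 4 libraries are the lowest 4 of the 28 for EXPA15.

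At ZT5, 1 h into the warmth, EXPA15 stood at 24.5 TPM in pif7 under oscillation and 24.4 TPM at constant temperature, and at 26 and 21.7 TPM in Col-0. By ZT16 the level under oscillation was 42.9 TPM in pif7 and 52.3 TPM in Col-0, against 52.8 and 39.6 TPM in the same genotypes at constant temperature. EXPA15 did not pass at ZT5 (0.17 ± 0.17, adjusted p = 0.655) or at ZT16 (-0.16 ± 0.17, adjusted p = 0.558). It had a log2 difference of -1.08 ± 0.17 at ZT8 (adjusted p = 0.00365, 1 of 9 members against 10.5% of all genes) and of -1.86 ± 0.17 at ZT12 (adjusted p = 0.000125, 1 of 9 against 16.2%), and both passes held in each alternative fitted. At ZT4, where the warm hours begin, it was higher under oscillation, at 42.6 TPM against 24.3 TPM in pif7 and 45.3 TPM against 26.6 TPM in Col-0 (log2 difference 0.74 ± 0.17, adjusted p = 0.0348, 1 of 9 against 4.77%), a pass that ended in 6 alternatives with adjusted p between 0.0515 and 0.0669. Over the whole window the log2 difference was -0.92 ± 0.26 (adjusted p = 0.0248). That pass ended without ZT8 (-0.85, adjusted p = 0.166), without ZT12 (-0.45, adjusted p = 0.284) and with only the pairs of the window in the fit (adjusted p = 0.0915).

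The regime difference of EXPA15 was unequal among the 7 times, with a range of 2.60 log2 units (F test added after the data were seen, adjusted p = 0.0004097). EXPA10, a gene known from leaf and petiole growth, was the other of 2 members to pass this test, with a range of 1.17 (adjusted p = 0.0362), against 13% of all genes. EXPA10 had 66.0 TPM at ZT0 and 19.9 TPM at ZT12 in pif7 under oscillation, against 45.3 and 38.7 TPM in pif7 at constant temperature. Col-0 had 59.0 and 25.9 TPM under oscillation at those times, against 40.3 and 32.9 TPM at constant temperature. EXPA10 was thus higher under oscillation at ZT0 and lower at ZT12 in both genotypes. Its pass ended in 8 alternatives, among them without ZT0, ZT4, ZT5 or ZT8 (adjusted p from 0.052 to 0.115). Over the 28 libraries the log2 levels of EXPA10 and EXPA15 had a Pearson r of 0.83, the highest among the 36 pairs of members, as a description of libraries that share times and regimes.

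**Figure D3:**
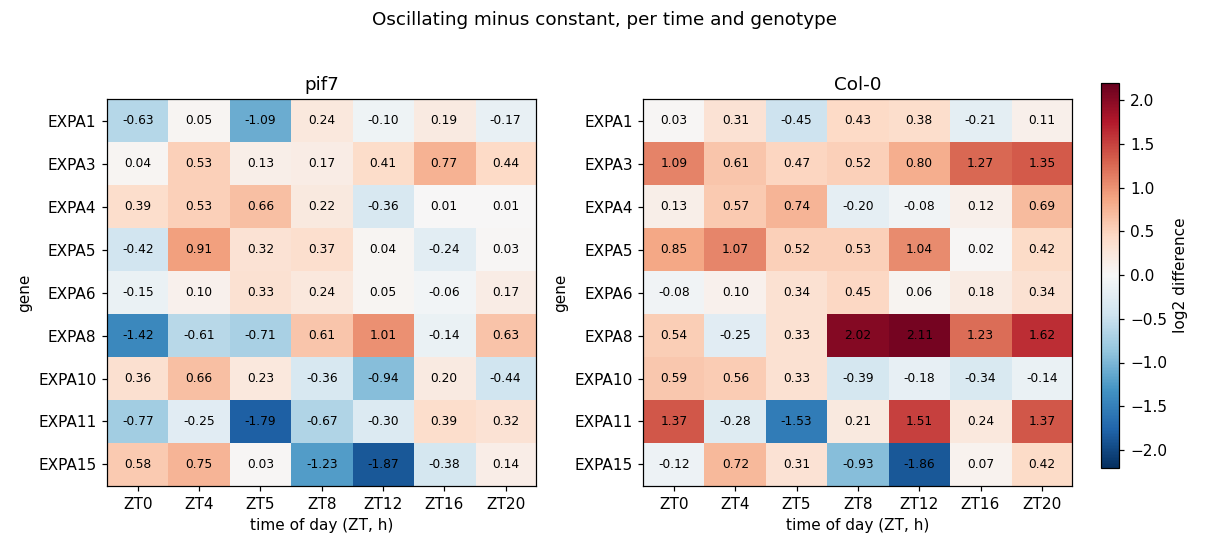
Log2 difference, oscillating minus constant, of each alpha expansin (rows) at each time of day (columns) in pif7 on the left and Col-0 on the right, on rescaled TPM plus 1, each cell from 1 pair of libraries. The EXPA15 cells at ZT12 hold -1.87 in pif7 and -1.86 in Col-0, the EXPA8 cells at ZT8 hold 0.61 in pif7 and 2.02 in Col-0, and the EXPA3 row is above 0 throughout.

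EXPA8, a common marker of hypocotyl growth under brassinosteroid and PIF control, was the most variable member, with 20.1-fold between its lowest and highest library. Its 7 levels from ZT0 to ZT20 were 14.3, 64.6, 54.0, 60.5, 31.9, 11.4 and 14 TPM in pif7 under oscillation, against 35.5, 96.6, 90.5, 37.9, 15.1, 12.0 and 7.49 TPM in pif7 at constant temperature. In Col-0 they were 51.8, 69.0, 62.9, 150.4, 62.7, 27.1 and 31.1 TPM under oscillation, against 36.6, 80.7, 52.3, 33.6, 15.4, 8.63 and 8.66 TPM at constant temperature. Col-0 under oscillation was at its highest at ZT8, when the constant course had already dropped, and stayed above its constant course at ZT12, ZT16 and ZT20. In pif7 the oscillating course lay below the constant one at ZT0, ZT4, ZT5 and ZT16 and above it at ZT8, ZT12 and ZT20.

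The regime difference of EXPA8 in the warm window was 0.89 ± 0.31 in both genotypes (adjusted p = 0.0579, 5 of 6 pairs), so it did not pass. It passed without ZT5, with 1.44 in both genotypes (adjusted p = 0.0081) and 2.07 in Col-0 (adjusted p = 0.0235). With all 3 window times the values were 0.30 ± 0.44 in pif7 (adjusted p = 0.758) and 1.49 ± 0.44 in Col-0 (adjusted p = 0.0714, 3 of 3 pairs). In the window 0 of 9 members passed in pif7 by limma, against 3.74% of all genes. There 4195 genes, and of the members EXPA15 alone, had an unadjusted p under 0.05. Without ZT5 EXPA15 passed in pif7 (-1.55, adjusted p = 0.0182). In Col-0 1 of 9 passed, against 4.41%: this was EXPA3 (0.60 ± 0.15, adjusted p = 0.0451), a pass that ended in 11 alternatives (adjusted p up to 0.229).

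EXPA11, whose course was closest to that of EXPA8 among the members (r = 0.68 over 28 libraries), was low at ZT5 under oscillation. It stood at 21.1 TPM in pif7 and 21.3 TPM in Col-0 under oscillation, against 76.9 and 66.5 TPM in the same genotypes at constant temperature. An hour earlier the levels under oscillation had been 73.9 TPM in pif7 and 63.9 TPM in Col-0, so both genotypes were lower at ZT5 than at ZT4. The log2 difference at ZT5 was -1.66 ± 0.47 (adjusted p = 0.0568), which did not pass, and it passed in 5 alternatives. At ZT8 EXPA11 was at 55.1 TPM in pif7 and 80.2 TPM in Col-0 under oscillation, against 84.9 and 64.0 TPM at constant temperature, and at ZT12 at 38.6 and 90.9 TPM, against 47.0 and 34.9 TPM. The genotypes thus lay on opposite sides of their constant courses at ZT8 and ZT12.

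EXPA1 was also low at ZT5 under oscillation, with 153 TPM in pif7 and 172 TPM in Col-0, against 333 and 245 TPM in the same genotypes at constant temperature. This was a log2 difference of -0.77 ± 0.20 (adjusted p = 0.0391). EXPA4 was higher at the same time, at 59.0 TPM in pif7 and 62.7 TPM in Col-0 under oscillation, against 37.6 and 38.8 TPM at constant temperature (0.70 ± 0.16, adjusted p = 0.0226). These were the 2 of 9 members to pass at ZT5, against 7.59% of all genes, and their differences lay in opposite directions. Without the Col-0 pair of ZT5 neither passed (adjusted p = 0.0823 for EXPA1 and 0.297 for EXPA4). EXPA1 also failed to pass in 5 other alternatives. EXPA4 was already higher under oscillation at ZT4, where the warm hours begin. It stood there at 62.9 TPM against 42.1 TPM in pif7 and at 65.1 TPM against 42.8 TPM in Col-0. The log2 difference of EXPA4 at ZT4 was 0.55 ± 0.16 (adjusted p = 0.0822 by limma), which did not pass. For EXPA1 it was 0.18 ± 0.20 at ZT4.

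EXPA5, known from growth that depends on brassinosteroids, ranged from 21.5 to 54.2 TPM with a median of 29.5 in pif7 under oscillation and from 18.2 to 36.7 with a median of 27.7 in pif7 at constant temperature. In Col-0 it ranged from 27.3 to 70.1 TPM with a median of 40.9 under oscillation and from 18.6 to 44.5 with a median of 24.8 at constant temperature. It was highest at ZT4 in both genotypes under oscillation, and the regimes overlapped in each genotype. Over all times its log2 difference was 0.39 ± 0.11 (adjusted p = 0.0265, 12 of 14 pairs), which was lost without ZT5, ZT8, ZT12 or ZT20 (adjusted p from 0.0509 to 0.0918). EXPA6 was higher under oscillation in 6 of 6 window pairs by 0.25 ± 0.08 (adjusted p = 0.0513). At ZT0, ZT16 and ZT20 0 of 9 members passed by limma, against 0.799%, 3.05% and 0.875% of all genes, with 2, 1 and 3 members at an unadjusted p under 0.05. EXPA3 was among these at each of the 3 times, and at ZT16 its log2 difference was 1.02 ± 0.26 (adjusted p = 0.0552). Of the 21031 genes tested, 2020 at ZT0, 5915 at ZT16 and 2300 at ZT20 had an unadjusted p under 0.05 by limma.

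The mean regime effect over all times was, for each member, lower in pif7 seedlings than in Col-0, and no member passed the test of that difference. Over all times, EXPA3 and EXPA5 passed in Col-0 (0.87 ± 0.10, adjusted p = 0.000648, and 0.64 ± 0.15, adjusted p = 0.0338), which is 2 of 9 against 3.43% of all genes. The pass of EXPA5 ended in 7 alternatives, among them without ZT0, ZT5, ZT8, ZT12 or ZT20 (adjusted p from 0.0552 to 0.116). In pif7 0 of 9 passed by limma, against 2.21%, with EXPA3 alone at an unadjusted p under 0.05 (0.36 ± 0.10, adjusted p = 0.0878, 7 of 7 pairs). Outside the window 0 of 9 passed in pif7, against 0.304%, with EXPA3 again the 1 member at an unadjusted p under 0.05, and 1 of 9 in Col-0, against 0.78% (EXPA3, 1.08 ± 0.13, adjusted p = 0.00429, which became 0.0537 without ZT20). Over all genes in pif7, 3620 over all times and 2221 outside the window had an unadjusted p under 0.05 by limma.

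The difference between the genotypes' regime effects was tested itself. Over all times the pif7 effect minus the Col-0 effect was -1.18 ± 0.41 for EXPA8, -0.85 ± 0.43 for EXPA11, -0.52 ± 0.14 for EXPA3 and -0.49 ± 0.21 for EXPA5, and it was below 0 for all 9 members, with a median of -0.30 beside 0.00517 over all genes. EXPA3, EXPA5 and EXPA8 had the lower regime difference in pif7 at 7 of 7 times, and all 9 stayed below 0 with unscaled TPM and with quantile normalization. Over the 16 alternatives fitted, 4 of the 144 member values of this difference changed sign. For EXPA4, EXPA6, EXPA10 and EXPA15 it was smaller than its SE (-0.07 ± 0.19, -0.10 ± 0.11, -0.10 ± 0.23 and -0.08 ± 0.34). The 9 values come from the same 28 libraries and are not independent. No member passed (adjusted p = 1 for each of the 9), as 0 of 21031 genes passed in limma (0% of all genes), and 287 genes, EXPA3, EXPA5 and EXPA8 among them, had an unadjusted p under 0.05. In the window alone the values were -1.18 ± 0.62 for EXPA8 and -0.98 ± 0.66 for EXPA11, with 0 of 9 members and 0% of genes passing. There 0 members and 279 genes had an unadjusted p under 0.05. A PIF7-dependent regime effect on these genes was not detectable at this threshold, which does not show its absence.

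**Figure D4:**
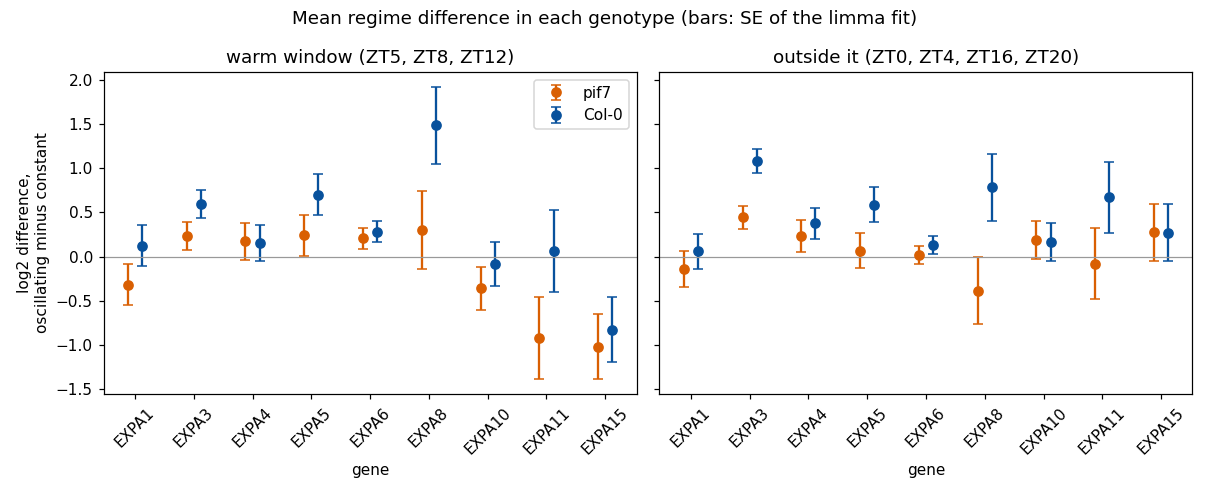
Mean log2 difference, oscillating minus constant, of each alpha expansin in pif7 and Col-0, over ZT5, ZT8 and ZT12 on the left and over ZT0, ZT4, ZT16 and ZT20 on the right; points are limma estimates and bars are 1 SE. The pif7 and Col-0 points are farthest apart for EXPA8 in both panels, at 0.30 and 1.49 on the left and at -0.39 and 0.79 on the right.

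Between genotypes within a regime, EXPA8 had lower levels in pif7 under oscillation than in Col-0 at each time. The log2 difference was -0.86 ± 0.25 in the window (adjusted p = 0.503, lower in 3 of 3 pairs) and -1.04 ± 0.22 outside it (adjusted p = 0.0898, lower in 4 of 4 pairs). At constant temperature it was 0.21 ± 0.16 (adjusted p = 0.9997). EXPA3 had -0.59 ± 0.12 outside the window under oscillation (adjusted p = 0.0754, lower in 4 of 4 pairs) and 0.07 ± 0.09 at constant temperature. Without ZT4 both passed outside the window, EXPA8 with -1.37 (adjusted p = 0.0143) and EXPA3 with -0.78 (adjusted p = 0.00483). In limma, 0 of 9 members passed over all 14 pairs, against 0.38% of all genes, and 0 of 9 at constant temperature, against 0.0903%. Under oscillation 0 of 9 passed in the window and 0 of 9 outside it, against 0.119% of genes in each. The members at an unadjusted p under 0.05 numbered 4 over all pairs, 0 at constant temperature, 3 in the window and 5 outside it. Of the 21031 genes tested, 1941, 963, 906 and 1032 had an unadjusted p under 0.05 by limma, in the same order.

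Root markers leaned the same way as most members between genotypes. In the pif7 minus Col-0 difference of the window effect, 1 of 9 members was above 0. For the 7 root markers this difference was -0.69 at the median, with 0 of 7 above 0 and 0 passing. For the 5 stomatal lineage markers it was 0.12 at the median, with 3 of 5 above 0 and 0 passing. Over all times 5 of 5 stomatal lineage markers were above 0, with a median of 0.23 and 0 passing. The summed rescaled TPM of the 7 root markers ran from 1320 to 2030 in pif7 under oscillation and from 1500 to 1990 in pif7 at constant temperature. In Col-0 it ran from 1660 to 2520 under oscillation and from 1220 to 2050 at constant temperature. This sum was mostly PYK10, at 1280 to 2410 TPM, as no other root marker exceeded 57 TPM in any library. None of the 7 was at 0 throughout a condition. In the warm window itself, over both genotypes, 2 of the 7 were higher under oscillation and 0 lower, with a median of 0.02. These were CASP5 (0.94, adjusted p = 0.00361) and CASP4 (0.56, adjusted p = 0.0483), proteins of the Casparian strip. Of the 4 root hair markers, 0 were above 0 there and 1 was lower by the test (COBL9, -0.49, adjusted p = 0.0182), with a median of -0.36. COBL9 was low in every library, at 0.769 to 3.09 TPM. The root hair markers include EXPA7 and EXPA18, alpha expansins that are also counted among the other expansins below. The summed rescaled TPM of the 4 root hair markers ran from 12.6 to 29.4 in pif7 under oscillation and from 26 to 33.2 in pif7 at constant temperature. In Col-0 it ran from 13.6 to 36.5 under oscillation and from 23.9 to 37.8 at constant temperature. CASP4, CASP5 and COBL9 were named after their values were seen. The 4 green shoot markers had a median oscillating minus constant difference of -0.60 outside the window, where 0 of 4 were above 0 and 1 was lower by the test. Their sums ran from 7620 to 15700 in pif7 under oscillation and from 10300 to 20000 in pif7 at constant temperature, and from 7320 to 17500 in Col-0 under oscillation and 11400 to 19900 in Col-0 at constant temperature. Whether tissue makeup has a part in the expansin differences was not tested, and in whole seedlings fewer cells of a type and less RNA per cell cannot be told apart.

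Other genes of wall growth moved unequally in the warm window. Their lists were chosen with earlier results of these data known, so the counts below are no independent test. Of the 12 xyloglucan endotransglucosylases listed, 8 were higher and 0 lower, against the 10.4% and 8.97% of all genes given above. Their median was 0.56, and these enzymes cut and rejoin xyloglucan chains. XTH4, the most abundant of them, had 0.59 ± 0.10 (adjusted p = 0.00143). Of the 8 plasma membrane proton pumps tested, 0 were higher and 1 lower, with a median of -0.02. Of the 8 cellulose synthesis genes tested, 1 was higher and 0 lower, with a median of 0.07. Of the 15 other expansins tested, 4 were higher and 1 lower, with a median of -0.09. These 5, named after their values were seen, were EXLA1, EXLA2, EXLB1 and EXPA2 with log2 differences of 1.64, 1.01, 0.98 and 1.07, and EXPA16 with -0.71. EXPA2 was near the floor, at 0 to 4.21 TPM with a median of 0.947. In the difference of the window effect between genotypes 0 members of these 4 lists passed, and the endotransglucosylases had a median of -0.29 with 2 of 12 above 0.

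The genes whose log2 levels followed a member most closely over the 28 libraries were found among 15719 genes for the 3 members with the largest SD of log2 level (1.18 for EXPA8, 0.775 for EXPA11 and 0.741 for EXPA1). For EXPA8 they were AT5G11420, AT5G48900 and AT5G62280, with r = 0.945, 0.903 and 0.898. For EXPA1 they were AT1G18810, AT2G27360 and BBX30, with r = 0.898, 0.896 and 0.894, and for EXPA11 they were AT2G46690, AT5G06440 and DRT100, with r = 0.822, 0.811 and 0.806. Between members, r ran from -0.59 for EXPA8 and EXPA15 to the 0.83 of EXPA10 and EXPA15. The libraries share times and regimes, so these values describe likeness of course only.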

How the data were processed

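RNA from whole seedlings was made into directional libraries and sequenced in pairs, per the labels' protocols. The submitters' processing notes name HISAT2, StringTie and TAIR10; versions, options and the strand setting are not given in the sources used here. Per the file headers, the authors deposited for each gene a coverage (signal per base), an FPKM and a TPM. Coverage and FPKM served only to derive depth, which was 1.32 to 2.82 gigabases per library (median 2.08 in pif7 and 1.85 in Col-0). Read numbers were left aside, so values carry no counting interval. The deposited TPM is not a standard one: within a library its assembled loci reach a sum of 1000000, whereas the rows of the 33602 reference genes reach 1010427 to 1034801. Every oscillating library is labelled 27 °C, so its regime rests on that label and the growth protocol.

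TPM was rescaled by median-ratio factors. The fit was limma 3.58.1 (R 4.3.3, variance trend) on log2(value + 1), with Benjamini-Hochberg adjustment over the 21031 genes that reached 1 TPM in 2 or more libraries. Errors are standard errors of the fit. Regime effects were fitted with a term per pair of genotype and time, and genotype effects with a term per pair of regime and time. Time of day was tested within each regime, with genotype as a term. All members were named, and the lists gave counts, medians and at most their most abundant gene. Exceptions are list genes said in the text to be named after their values were seen, and EXPA7 and EXPA18, named as root hair markers. The members and lists were chosen with earlier results of these data known. Results were refitted with other pseudocounts (0.1, 5), no filter, a filter on mean TPM (5), TPM without rescaling, quantile normalization, a fit with no variance trend, omission of each time, and, for the comparisons in the warm window and the one outside it in both genotypes, a fit of their own pairs only. Between 14 and 17 of these settings, those added later included, apply to a comparison. The comparison over all times, the F test among times and omission of the Col-0 ZT5 or ZT0 pair were added after seeing the data. RefSeq TAIR10.1 gave symbols (32835 genes matched) and promoters, whose motifs were also counted from the gene starts in the files, likewise added. Other software was Python 3.11.15 with pandas 2.3.3 and numpy 2.4.6, and figures used matplotlib 3.10.9.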

Additional observations from a re-analysis of the deposited data

Results flagged for a closer look

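The regime difference, oscillating minus constant, was unequal among the 7 times for 2 members by an F test over all genes. EXPA15 had an adjusted p of 0.0004097, with single-time log2 differences from -1.86 at ZT12 to 0.74 at ZT4. EXPA10 had an adjusted p of 0.0362, with -0.56 at ZT12 and 0.61 at ZT4. No cause was tested for either.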

How the results depend on the processing

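The fits above pair libraries of the same genotype and time, or of the same regime and time; a block by replicate number could not be fitted, as each condition has 1 library. Of 3618 member values under up to 17 alternatives, 3503 kept direction and side of the threshold, 56 lost a pass, 59 gained one and 0 reversed; 94 that passed in neither setting changed sign. Gained and lost passes without a stated reason have causes that were not tested.

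In the warm window of Col-0, 1 member passed; the number was 0 with no filter, unscaled TPM, quantile normalization, no variance trend, only the window's pairs, or without ZT8, ZT12, ZT16 or ZT20, and 2 without ZT4 or ZT5. Over both genotypes it was 2, against 0 without ZT8, 1 without ZT12 and 3 in 7 alternatives (no filter, unscaled TPM, without ZT4, ZT5 or ZT16, or without either Col-0 pair); in pif7 it was 0, against 1 without ZT5. Unscaled TPM gave 2 in place of 1 outside the window, 1 (EXPA5) in place of 0 between genotypes over 14 pairs, and 9 in place of 5 for single times. Single times gave 9 without ZT0 or the Col-0 ZT0 pair, 3 without ZT4, 2 without ZT5, ZT8 or the Col-0 ZT5 pair, and 8 without ZT12. Omission of a whole time also removes that time's own combinations, so its passes are lost by design. Over all times 2 members became 1 without ZT8 or ZT20 and 3 with unscaled TPM, without ZT0 or without the Col-0 ZT5 pair. The unequal regime difference went from 2 members to 1 with no filter, no variance trend, without ZT0, ZT4, ZT5 or ZT8, or without either Col-0 pair, and to 3 with unscaled TPM, quantile normalization or without ZT20. With the gene starts of the files, 1 member in place of 3 held CACATG within 250 bases.

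Unscaled TPM moved the median of all genes outside the window to 0.11, against 0.01 (at ZT16 to 0.18), and EXPA1 outside the window to 0.08, against -0.04, so those differences are best read against that shift. Over all genes, the window calls in both genotypes (4083) became 1258 without ZT8, 2017 without ZT12 and 2368 with only the window's pairs. Those outside it (1117) ranged from 349 without ZT16 to 1789 without the Col-0 ZT0 pair, and those over all times (3036) became 1361 without ZT8. The ZT5 calls (1596) became 351 without the Col-0 ZT5 pair, and the ZT0 calls (168) became 37 without the Col-0 ZT0 pair. The pif7 minus Col-0 difference of the window effect (0) gave 1 with no filter and 4 without ZT12, and that over all times (0) gave 1 with a pseudocount of 0.1, 1 without ZT5 and 2 without the Col-0 ZT5 pair; no member was among them. The absence of replicates and the unstated strand setting limit every value.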
